A study of Arabidopsis thaliana with 3 samples.

Results

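Condensin and the SMC5/6 complex are ring-shaped ATPase machines that fold and repair chromosomes. The 10 genes described here encode subunits of both complexes, chosen by their gene identifiers out of the 37336 genes of the count table. They were SMC2A (also CAP-E1), SMC2B (CAP-E2), SMC4 (CAP-C), CAP-D2, CAP-D3, CAP-G and CAP-H of condensin, and SMC5, SMC6A and SMC6B of the SMC5/6 complex. The plants were Arabidopsis thaliana Col-0, wild type and untreated, and polyadenylated RNA of whole 7-day seedlings was sequenced in 3 samples. Plants grew on agar medium with sucrose at 21 °C, with 16 h of light and 8 h of dark. All 3 samples form 1 group, so no comparison between genotypes or treatments was made, and the spread between the libraries is what the design allows to be tested. No label says that the samples came from separate plants or cultures, so that spread may be technical.

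In each complex a pair of long SMC proteins meets at a hinge, and each SMC protein folds back on itself as a coiled coil that ends in an ATPase head. A kleisin subunit closes the ring between the heads, and in condensin further subunits with HEAT repeats bind the kleisin. Condensin loops and compacts chromosomes for mitosis, and plants, like animals, have a condensin I and a condensin II that share the SMC2 and SMC4 ATPases. The SMC5/6 complex acts in homologous recombination and carries a SUMO ligase subunit. In a seedling, cells that divide are concentrated in the shoot and root meristems and in young leaves, and transcripts of these genes were read from the whole organism.

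The libraries held 32967215, 31761722 and 27069921 counts in replicates 1, 2 and 3. Levels are given as CPM, the count of a gene scaled to library sizes adjusted by TMM, and detection meant that no library fell under 1 CPM. By this rule 45.7% of all genes in the table were detected, and 8 of the 10 subunit genes were. SMC2B and SMC6A were not, through replicate 3 for SMC2B and through replicates 2 and 3 for SMC6A. Replicate 1 stood apart. The summed level of 4 root markers (CASP1 of the Casparian strip, its regulator MYB36, the root hair gene COBL9 and the phosphate transporter PHT1;1) was 8.07, 87.9 and 92.9 CPM in replicates 1, 2 and 3, and each of the 4 was lowest in replicate 1. For 3 markers of green tissue (CAB1, RBCS1A and RCA) the sums were 55941, 53945 and 52744 CPM. These 3 did not share a direction. CAB1 (31762, 26957 and 27466 CPM) and RBCS1A (13818, 13698 and 12987 CPM) were highest in replicate 1. RCA was lowest there, at 10361, 13290 and 12291 CPM in replicates 1, 2 and 3. In bulk RNA, fewer cells of a type and less RNA per cell cannot be told apart. The part of this difference in the results below was not tested.

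The ATPase genes of condensin were high in replicate 1 and low in the other libraries. SMC4 (AT5G48600, chromosome 5, 19701728 to 19709342; 28 exons, named SMC3 in RefSeq though it is not the cohesin gene) encodes the condensin-specific partner of SMC2. It had 553, 84 and 43 counts, or 15.5, 2.75 and 1.65 CPM, in replicates 1, 2 and 3. Replicate 1 was thus 5.66-fold above replicate 2 and 9.42-fold above replicate 3. SMC2A (AT5G62410, chromosome 5, 25056025 to 25062670; 20 exons) had 12.9, 3.79 and 1.92 CPM in replicates 1, 2 and 3. SMC2B (AT3G47460, chromosome 3, 17486490 to 17493395, 20 exons), the second SMC2 gene, had 7.87, 1.86 and 0.844 CPM. In all 3 genes the order of the libraries was the same, with replicate 1 highest and replicate 3 lowest.

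SMC2A and SMC2B are similar in sequence, and the assignment of reads that match both is uncertain. Their coding sequences were 84.9% identical over 3525 aligned bases. The longest stretch they shared without a mismatch ran over 47 bases, from base 2614 to base 2660 of either coding sequence, and is shown because a read that lies within it cannot be given to one gene.
SMC2A and SMC2B: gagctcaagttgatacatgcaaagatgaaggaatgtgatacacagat
SMC6B and SMC6A were 80.5% identical over 3174 aligned bases, with a longest shared stretch of 36 bases.
SMC6B and SMC6A: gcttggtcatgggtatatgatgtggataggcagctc
By contrast SMC2A shared no exact stretch longer than 12 bases with SMC4, nor CAP-D2 one longer than 11 bases with CAP-D3.

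The non-SMC subunits of condensin differed far less between libraries. CAP-D2 (AT3G57060, chromosome 3, 21114798 to 21121160), the HEAT-repeat subunit of condensin I, had 12.5, 6.73 and 7.45 CPM in replicates 1, 2 and 3. CAP-D3 (AT4G15890, chromosome 4, 9017256 to 9023026), its condensin II counterpart, had 5.43, 3.82 and 3.99 CPM. The second HEAT-repeat subunit of condensin I, CAP-G (AT5G37630, EMB2656, chromosome 5, 14947227 to 14952806), was nearly level at 7.14, 6.96 and 6.91 CPM. CAP-H (AT2G32590, EMB2795, chromosome 2, 13829290 to 13833342), the kleisin of condensin I, had 6.78, 3.69 and 3.45 CPM. Replicate 1 was the highest library for all 4, by 1.03-fold for CAP-G up to 1.90-fold for CAP-H over the mean of replicates 2 and 3. In CPM the 6 ATPase genes were 2.23-fold to 7.51-fold higher by the same measure.

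In the SMC5/6 complex, SMC5 (AT5G15920, chromosome 5, 5195593 to 5199697) was the most even of the ATPase genes, at 11.5, 5.69 and 4.64 CPM in replicates 1, 2 and 3. It has 4 exons, against 20 to 29 in the other ATPase genes. SMC6B (AT5G61460, MIM, chromosome 5, 24714076 to 24721970), whose mutant is sensitive to DNA-damaging agents, had 9.95, 2.62 and 2.34 CPM. SMC6A (AT5G07660, chromosome 5, 2422783 to 2430136), the second gene for the same subunit, had 124, 19 and 8 counts, or 3.49, 0.621 and 0.307 CPM. The exact 95% Poisson interval of the 8 counts was 3.45 to 15.8, so its level in replicate 3 is known only roughly. Intervals of this kind cover counting error alone.

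**Figure D1:**
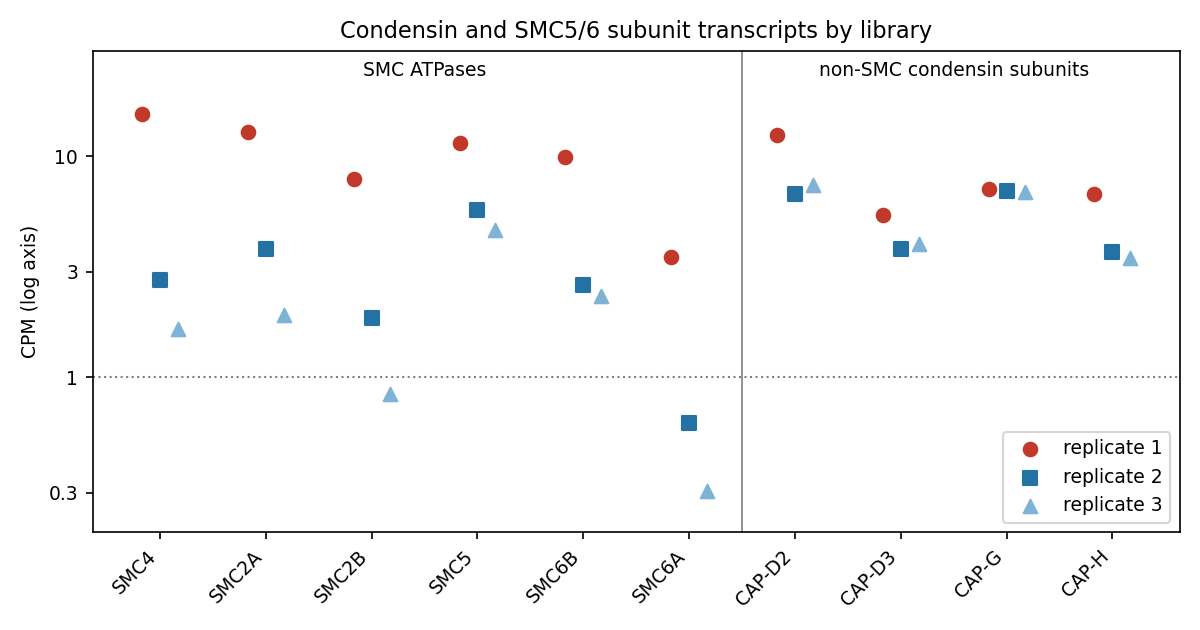
CPM (log axis) of the 10 subunit genes in replicates 1 (circles), 2 (squares) and 3 (triangles), with the 1 CPM limit of detection dotted. The 6 SMC ATPase genes on the left spread widely, with SMC4 at 15.5, 2.75 and 1.65 CPM, while CAP-G on the right stays between 6.91 and 7.14 CPM.

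Summed over the 6 ATPase genes, the level was 61.3, 17.3 and 11.7 CPM in replicates 1, 2 and 3. For the 4 non-SMC subunits the sum was 31.9, 21.2 and 21.8 CPM. On the log2(CPM + 0.5) scale, replicate 1 exceeded the mean of the others by a median of 2.06 for the ATPase genes, with a range of 1.09 to 2.60. For the non-SMC subunits the median difference was 0.60, with a range of 0.04 to 0.84, and for all 19016 genes tested it was 0.01. Between replicates 2 and 3 the median difference was 0.53 for the ATPase genes, −0.02 for the non-SMC subunits and 0.01 for all genes tested. All 6 ATPase genes, and none of the non-SMC subunits, exceeded the mean of replicates 2 and 3 by over 1 on this scale in replicate 1, where 6.97% of all genes tested were higher by over 1 in replicate 1. Against replicate 2 alone, 5 members, all ATPase genes, were higher by over 1, where 6.28% of genes were, and SMC5 was at 0.96. Against replicate 3 alone, all 6 ATPase genes were higher by over 1, where 8.17% of genes were. Between replicates 2 and 3, 0 of the 10 genes were over 1 apart on this scale, where 0.294% of genes were. The added 0.5 shrinks the differences of low genes, and in plain CPM replicate 2 was 2.21-fold above replicate 3 for SMC2B and 2.02-fold for SMC6A. All 8 detected members were highest in replicate 1, as were 46.1% of detected genes. The 2 undetected members were also highest there.

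Counting error at this depth was far smaller than these differences for most of the genes. Of the 9 members with enough counts to be tested, 8 varied between libraries beyond counting error (Poisson chi-square test with Benjamini-Hochberg adjustment over all genes), a rule that 78.5% of all tested genes passed. The exception was CAP-G (adjusted p = 0.941 by the Poisson test over all genes). Without replicate 1, SMC2A, SMC2B and SMC4 were the 3 members that passed (Poisson chi-square test, Benjamini-Hochberg adjusted p = 0.000407, 0.00769 and 0.0287), where 24.7% of genes did.

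Measured against genes of similar abundance, 2 of the 9 tested members spread more between libraries (edgeR goodness-of-fit test, Benjamini-Hochberg adjusted over all 19016 genes), where 2.02% of all genes did. They were SMC4 (edgeR adjusted p = 0.00480) and SMC2B (edgeR adjusted p = 0.0463). SMC2A (edgeR adjusted p = 0.0733) and SMC6B (edgeR adjusted p = 0.286) did not pass, and the remaining 5 tested members, SMC5 and the 4 non-SMC subunits, had an edgeR adjusted p of 1. SMC6A was left out of this test by the filter on low counts. Without replicate 1, 2 or 3 in turn, 0 members were called in each case by edgeR, with 0.308% of all genes called without replicate 1. SMC2B was also lost when genes with few counts were kept in the test (edgeR adjusted p = 0.0848), a setting in which SMC6A had an edgeR adjusted p of 0.120.

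Levels of different genes were compared per kb of merged exons, since the merged exon lengths ran from 2279 bases for CAP-H to 4637 for CAP-D2. On this scale all 10 genes were low, with a median of 1.57 CPM per kb, against 9.21 for detected protein-coding genes. Averaged over the libraries on the log2 scale, the order from high to low was CAP-G, CAP-H, SMC5, CAP-D2, SMC2A, SMC6B, SMC4, CAP-D3, SMC2B and SMC6A. Their mean levels ran from 2.08 ± 1.05 CPM per kb for SMC5 and 2.04 ± 0.813 for CAP-H to 0.426 ± 0.507 for SMC6A (SD, n = 3). CAP-G stood at 1.95 ± 0.0337 CPM per kb. Of the 9 pairs of neighbours in this order, only SMC2B and SMC6A were separated in the same direction in all 3 libraries by more than the SD of the difference (log2 difference 0.87 ± 0.15). The other 8 pairs of neighbours were not separated beyond their spread. SMC4 ranked first of the 10 in replicate 1 and eighth in replicates 2 and 3. CAP-G did the reverse, at rank 7 in replicate 1 and first in the others. SMC6A was the lowest in each library. Without replicate 1, 6 of the 9 neighbouring pairs of the new order were separated, against 1 without replicate 2 and 2 without replicate 3. With a library left out, the rule of 1 direction in all libraries is easier to meet.

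**Figure D2:**
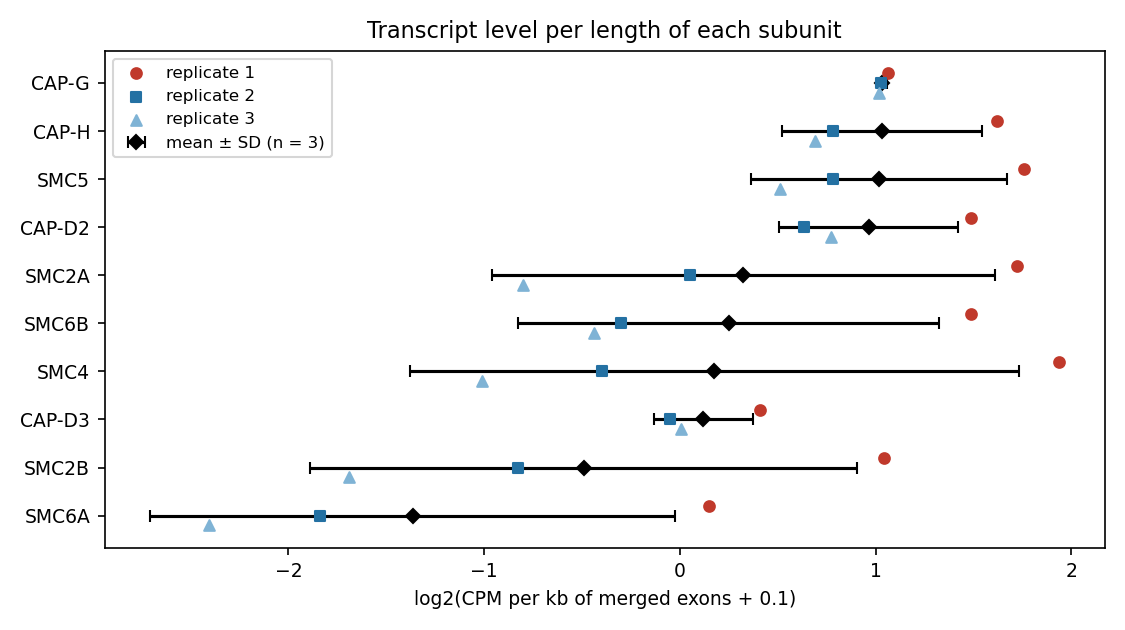
log2(CPM per kb of merged exons + 0.1) of each gene, ordered by mean from the top, with the 3 libraries as coloured points and the mean ± SD (n = 3) as black diamonds with bars. The bars of neighbours overlap down the order, and SMC6A is lowest in each library.

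Ratios between paralogues, counterpart subunits and ATPase partners were formed within each library. They used CPM per kb with 0.1 added to each side, which shrinks the ratios of low genes. SMC2A exceeded SMC2B in 3 of 3 libraries, by a log2 ratio per kb of 0.68, 0.88 and 0.89 in replicates 1, 2 and 3 (mean 0.82 ± 0.12, SD, n = 3), or 1.76-fold. SMC6B exceeded SMC6A in 3 of 3 libraries, by 1.34, 1.54 and 1.96 (mean 1.61 ± 0.32), or 3.06-fold. SMC6A was at 0.180 and 0.0888 CPM per kb in replicates 2 and 3, so the added 0.1 makes this fold smaller than the plain ratio. The ratio of CAP-D2 of condensin I to CAP-D3 of condensin II was 1.08, 0.69 and 0.77 on the log2 scale (mean 0.84 ± 0.21), or 1.80-fold. For the kleisins the condensin I gene was also the higher one, with CAP-H over CAP-H2 at 0.40, 0.32 and 0.26 (mean 0.33 ± 0.07). This ratio was smaller per kb of coding sequence (0.14 ± 0.07) and without length correction (0.12 ± 0.07). CAP-G stood below CAP-G2, with log2 ratios of −0.86, −0.12 and −0.03 (mean −0.34 ± 0.45), a mean smaller than its SD. Without replicate 1 the mean was −0.08, and per kb of coding sequence it was −0.25 ± 0.45, with the libraries no longer all on 1 side of 0.

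The ATPase partners did not match one to one. SMC4 was below the sum of both SMC2 genes in 3 of 3 libraries, with log2 ratios of −0.46, −0.98 and −0.66 (mean −0.70 ± 0.27). SMC5 relative to the sum of both SMC6 genes was at −0.18, 0.80 and 0.79 in replicates 1, 2 and 3, so its direction in replicate 1 was opposite to that in the others. Of the 7 ratios, 6 kept the same direction throughout. The smallest p that sign-flip permutation of 3 libraries can give is 0.25 (exact, two-sided), and after adjustment over the 7 ratios the lowest exact p was 0.292 (n = 3), so none could pass.

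**Figure D3:**
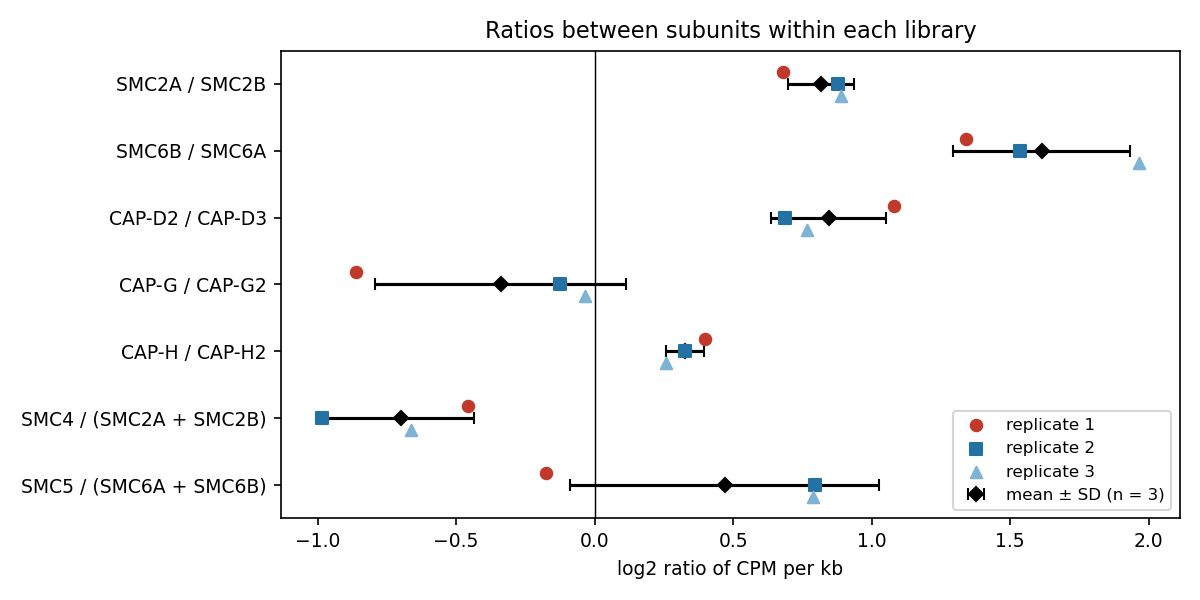
log2 ratios of CPM per kb between paralogues, condensin I over condensin II counterparts, and ATPase partners, with 1 point per library and the mean ± SD (n = 3) in black. SMC2A over SMC2B stays between 0.68 and 0.89, while SMC5 over both SMC6 genes crosses 0, with replicate 1 at −0.18.

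The ATPase genes were richer in purines than the other condensin subunits. Purines (A and G) made up 55.8% to 58.6% of the merged exons of the 6 ATPase genes on the coding strand, and 52.1% to 54.1% of those of the 4 non-SMC subunits. SMC4, at 58.6%, was richer in purines than 99.1% of detected protein-coding genes, SMC5, the lowest of the ATPase genes, than 95.7%, and CAP-D2 than 71.6%. In sliding windows of 60 bases along the coding sequence, at least 65% purines were found in 35.6% of windows of SMC4, 22.3% of those of SMC5 and 6.8% of those of CAP-G. The richest single window was 81.7% purines in SMC4, 83.3% in SMC6A and 80.0% in CAP-G, so the genes differed more in how often such windows occurred than in the richest one. These windows are shown because they let the 3 be compared, with purines in capitals, 5′ to 3′ on the coding strand (RefSeq TAIR10.1), and hold 49, 50 and 48 purines of 60 bases.
SMC4, chr5:19707137-19707196, plus strand: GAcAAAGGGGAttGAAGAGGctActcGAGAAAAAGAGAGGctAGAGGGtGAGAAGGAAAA
SMC6A, chr5:2425475-2425534, plus strand: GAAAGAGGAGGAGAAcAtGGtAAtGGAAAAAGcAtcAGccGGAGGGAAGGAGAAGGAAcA
CAP-G, chr5:14952448-14952507, plus strand: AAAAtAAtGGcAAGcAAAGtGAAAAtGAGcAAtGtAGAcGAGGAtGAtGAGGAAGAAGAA

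Among the 10 members, the excess in replicate 1 rose with this purine share. Over the 10 genes, Pearson's r between the purine share and the log2 difference of replicate 1 from the mean of the others was 0.95, and Spearman's rho was 0.94. For exon number r was 0.76, and for exon length 0.12. These are correlations across genes of the same 3 libraries, which are not independent replicates. Across all 16749 detected protein-coding genes r for purine share was 0.42. Genes with 52% to 53% purines had a median difference of 0.20, and those with 58% to 59% one of 1.18 (89 genes). All 6 ATPase genes lay above the median of genes of like purine share. SMC4 was at 2.60 where its 1-point bin had a median of 1.18 and an upper quartile of 1.78. SMC2A, SMC2B and SMC6A, at 2.06, 2.23 and 2.07, lay above a bin median of 0.95 and an upper quartile of 1.54, and SMC6B, at 1.81, above 0.83 and 1.46. SMC5, at 1.09, lay just under the upper quartile of its bin, 1.12. Of the non-SMC subunits, CAP-D2, at 0.78, was above a bin median of 0.20 and an upper quartile of 0.55, and CAP-H, at 0.84, above 0.47 and 0.83. CAP-D3, at 0.43, was above its bin median of 0.20 and CAP-G, at 0.04, below it. In all, 9 of the 10 genes lay above the median of their bin. The purine shares of SMC4 and SMC2B, the members called by edgeR, fall in the top decile. Of the detected protein-coding genes of that decile, edgeR called 8.14% beyond genes of similar abundance, and 79.0% were highest in replicate 1. In that decile the median difference in replicate 1 rose with exon number. It was 0.33 for genes with 1 exon, 0.97 for those with 11 to 19 and highest with 20 to 77. The bins of purine share leave this out, so they are a low reference for the ATPase genes with 20 to 29 exons. All 6 ATPase genes fall in that decile, and each lay above the decile's median for genes of like exon number. The decile spans 54.21% to 68.69% purines, with a median difference of 0.69. That is below the 1-point bin medians of the ATPase genes other than SMC5, 0.83 to 1.18. The exon groups are thus a low reference for these genes too, and no reference matched both features closely. The parts of base composition and exon number in the library difference were not tested.

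**Figure D4:**
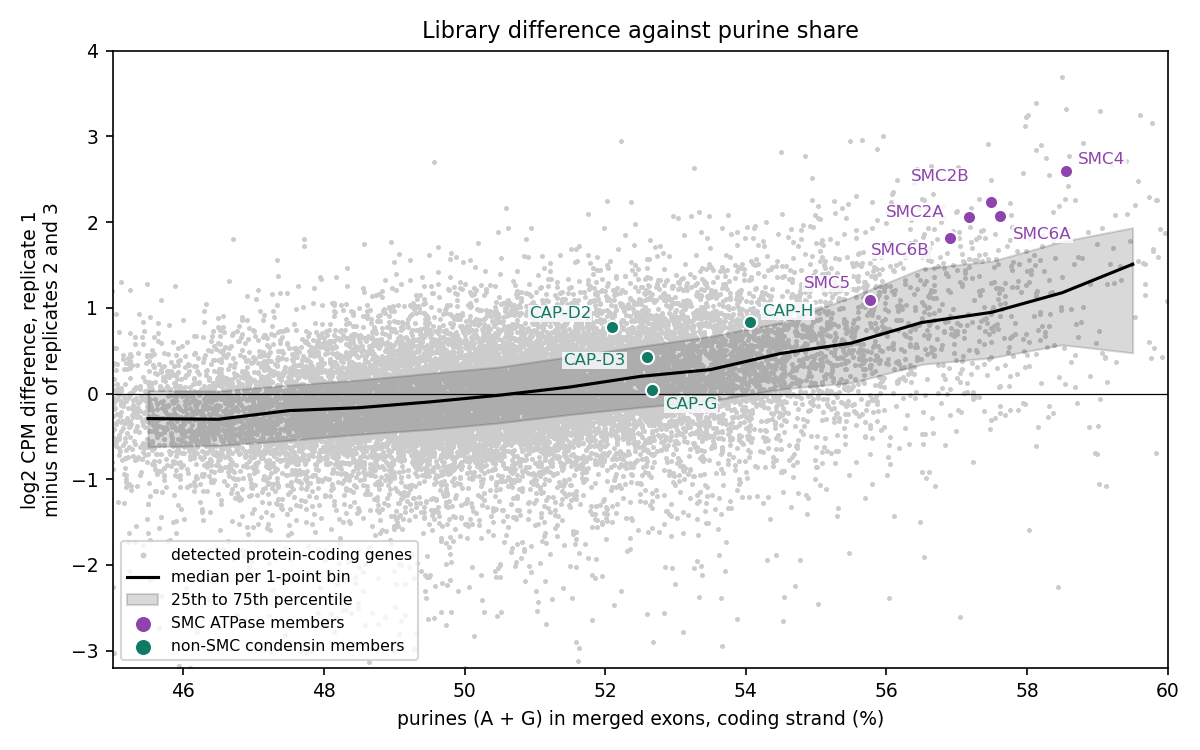
Difference in log2(CPM + 0.5) of replicate 1 from the mean of replicates 2 and 3 against the purine share of merged exons, for detected protein-coding genes between 45% and 60% (grey), with the median and quartiles of each 1-point bin. The ATPase genes (purple) lie at 55.8% or more purines and 1.09 or more above 0, and the non-SMC condensin subunits (green) at 54.1% or less and 0.84 or less.

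The other subunits of both complexes differed less between libraries than the ATPase genes by their values, a difference that was not tested. The condensin II subunits CAP-G2 (AT1G64960, HEB1) and CAP-H2 (AT3G16730, HEB2) had 14.5, 8.34 and 7.75 CPM and 5.96, 3.40 and 3.34 CPM in replicates 1, 2 and 3. Neither spread more than genes of similar abundance (edgeR adjusted p = 1 for both). Of 7 other SMC5/6 subunits 5 were detected. They included the SUMO ligase NSE2 (AT3G15150, HPY2) at 5.81 ± 1.23 CPM and the kleisin NSE4A (AT1G51130) at 5.80 ± 0.469 CPM (SD, n = 3). NSE1 (AT5G21140), NSE3 (AT1G34770) and ASAP1 (AT2G28130) were at 2.29 ± 0.288, 3.72 ± 1.63 and 6.88 ± 0.739 CPM. SNI1 (AT4G18470) was at 0.668 ± 0.242 CPM. NSE4B (AT3G20760), the second kleisin gene, had 0 counts in each library, which allows up to 0.0843, 0.0981 and 0.115 CPM in replicates 1, 2 and 3. Of the 6 tested genes of this list, 0 spread more than genes of similar abundance (edgeR goodness-of-fit test) and 2, NSE2 and NSE3, varied beyond counting error. Their excess in replicate 1 ran from 0.07 to 0.89 on the log2 scale. Set out by rising purine share, the excess was 0.81 for CAP-G2 (50.2%), 0.23 for ASAP1 (50.5%) and 0.44 for NSE2 (50.7%). It was 0.89 for NSE3 (51.5%), 0.10 for NSE1 (52.1%) and 0.34 for SNI1 (52.9%). For NSE4A (53.05%) and CAP-H2 (53.9%) it was 0.07 and 0.74. The correlation with purine share over the 10 members does not include these genes.

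Other genes of SMC-type proteins were also highest in replicate 1, in 5 of 5 cases. The recombination gene RAD50 (AT2G31970) had 30.95, 4.05 and 2.00 CPM in replicates 1, 2 and 3, and the cohesin genes SMC1 and SMC3 exceeded the mean of the other libraries by 2.78 and 2.16 in replicate 1. All 3 spread more than genes of similar abundance (edgeR adjusted p = 6.02e-06, 7.09e-05 and 0.0126 for RAD50, SMC1 and SMC3), and they held 55.4% to 58.6% purines. Without replicate 1 none of the 3 calls remained (edgeR adjusted p = 0.560, 0.637 and 0.513). DMS3 (AT3G49250) and GMI1 (AT5G24280), which carry an SMC hinge but no whole SMC ATPase, had differences of 0.45 and 0.41 (edgeR adjusted p = 1 for both), at 48.9% and 52.3% purines. Another gene overlaps 54.6% of the exons of DMS3, which leaves its value uncertain.

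Cell cycle genes had smaller median differences than the ATPase genes. Of 20 mitosis genes, all detected, 14 were highest in replicate 1, with a median difference of 0.52 and a range of −0.74 to 1.89. Among the 20, 4 exceeded the mean of replicates 2 and 3 by over 1, where 6.97% of all genes tested did. SMC5, at 1.09, lay within the range of the mitosis genes. The lowest by mean CPM was the cyclin CYCB2;1 (AT2G17620) at 1.76 ± 0.647 CPM and the highest the topoisomerase TOPII (AT3G23890) at 25.4 ± 13.9 CPM. Of 8 DNA replication genes, from MCM6 (AT5G44635) at 4.81 ± 1.95 CPM to MCM7 (AT4G02060) at 17.8 ± 1.52 CPM, 7 were highest in replicate 1, with a median difference of 0.33. In both lists edgeR called 0 genes against others of similar abundance, while 15 of 20 and 5 of 8 varied beyond counting error.

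**Figure D5:**
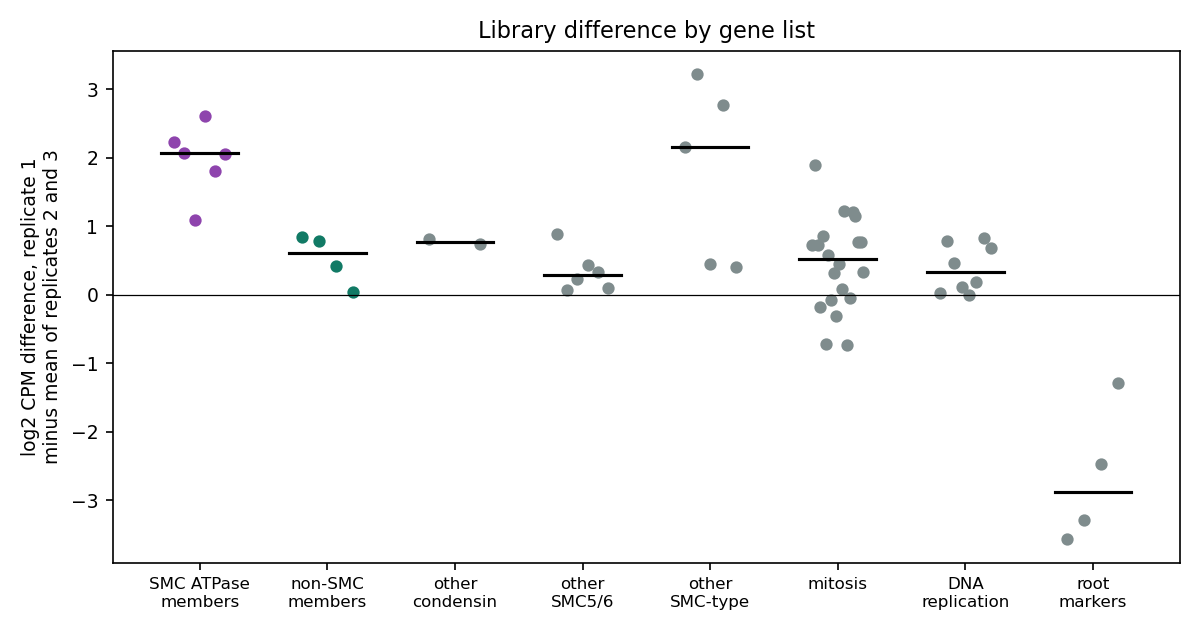
Difference in log2(CPM + 0.5) of replicate 1 from the mean of replicates 2 and 3, with 1 point per gene and the median of each list as a bar. The 6 ATPase members (median 2.06) and 3 of the 5 other SMC-type genes lie highest, root markers lie below 0, and NSE4B, with 0 counts, is not drawn.

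A short sequence recurred near the start of 5 of the 10 genes. E2F factors, which switch on genes for S phase, are known to bind sites such as TTTCCCGC. In a window from 250 bases before to 50 bases after the annotated gene start, this exact 8-base sequence was found in 5 of the 10 genes and in 0.8% of 27443 protein-coding genes, searched on both strands. In all 5 it lay on the coding strand, and its first base was at −26 in SMC2B, −13 in SMC6A, +12 in SMC2A, +36 in CAP-G and +38 in SMC6B, counted from the gene start at +1. The sites are shown with up to 11 flanking bases within the window, 5′ to 3′ on the coding strand (RefSeq TAIR10.1), with the match in capitals.
SMC2B, chr3:17486453-17486482, plus strand: tagaaattcagTTTCCCGCtcttttgctac
SMC6A, chr5:2422759-2422788, plus strand: ctcctcttttaTTTCCCGCccattaaaaca
SMC2A, chr5:25056025-25056054, plus strand: ccaaagttcacTTTCCCGCtccttgtgttc
CAP-G, chr5:14947251-14947276, plus strand: atatcaaatatTTTCCCGCtcataga
SMC6B, chr5:24721921-24721944, minus strand: atagcaatctcTTTCCCGCcctaa

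Both genes of each paralogue pair held a match, and SMC4, CAP-D2, CAP-D3, CAP-H and SMC5 held none in this window. The variants TTTGGCGC, TTTGCCGC and TTTCGCGC added no gene to the 5, with 1.76% of all windows holding any of the 4 forms. In the other lists the exact sequence was found in CAP-H2, in NSE4A and SNI1 of 7 other SMC5/6 genes, in MCM2, MCM5 and MCM6 of 8 replication genes, in 0 of 20 mitosis genes and in 0 of 5 other SMC-type genes. The mitotic MSA element, searched as CNAACGG on both strands, was in 0 of the 10 windows and 5.52% of all. The telo-box AAACCCTA was in 1, that of SMC6A, and in 6.22% of all. Of the 5 genes with the match, SMC2A, SMC2B, SMC6A and SMC6B had differences of 1.81 to 2.23 in replicate 1, and CAP-G had the smallest of the 10, at 0.04. Of the 5 without it, SMC4 had the largest, at 2.60, and CAP-D2, CAP-D3, CAP-H and SMC5 lay between 0.43 and 1.09. The values of genes with and without the match thus overlapped. A match in a window is not evidence of binding.

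Genes whose profile over the 3 libraries was closest to the median profile of the 8 detected members were FAR1 (AT4G15090), REF6 (AT3G48430) and the gene annotated as TTL (AT4G24900). That median profile was 0.64, −0.25 and −0.41 in replicates 1, 2 and 3, on the centred log2 scale. It is a middle value that single members can lie far from, since their differences in replicate 1 ran from 0.04 to 2.60. Likeness was the root mean square difference of centred log2(CPM + 0.5) over 3 libraries, and it was 0.00761, 0.00860 and 0.00931. FAR1, for instance, had 19.2, 10.1 and 9.06 CPM in replicates 1, 2 and 3. With 3 libraries such likeness is common, and 415 of 11149 protein-coding genes with a mean of 10 CPM or more lay within 0.1 of the profile.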

How the data were processed

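What was deposited is a table of raw counts, whole numbers for each gene in each of the 3 libraries. Per the submitters' processing notes, TAIR10 is the named build and the named tools are featureCounts 1.6.1, HISAT2 2.1.0 and DESeq2, whose roles the notes do not state. For annotation, strand setting and shared reads the sources used here give nothing, so close copies and genes with overlapping exons are uncertain. The members and the gene lists were chosen with earlier results of these data known.

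Identifiers were matched to the RefSeq annotation of TAIR10.1 (37051 of 37336, 99.24%), from which coordinates, exon lengths, base composition and sequences were read. CPM used TMM factors of 1.079, 0.9631 and 0.9624 (edgeR 4.0.16, R 4.3.3). Pseudocounts were 0.1 on CPM per kb for levels and 0.5 on CPM for differences. Variation was tested on 19016 genes left by edgeR's filterByExpr with an intercept-only design, with a goodness-of-fit statistic on trended dispersions (edgeR) and with a Poisson chi-square, each adjusted at 0.05. The tests were checked on simulated data whose changes were larger than any seen in the members. That check does not show how often changes as small as theirs would be found. Ratios within libraries were tested by two-sided exact sign-flip permutation. The split into ATPase and non-SMC genes, the purine bins and the motif search were added after the data were seen. Named genes were the 10 members, the other subunits and SMC-type genes, the extremes of longer lists, the tissue markers and the 3 most alike genes. DESeq2 1.42.0 gave size factors and dispersion outliers as alternatives. Python 3.11.15, NumPy 2.4.6, pandas 2.3.3, SciPy 1.17.1 and Biopython 1.88 were used.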

Additional observations from a re-analysis of the deposited data

How the results depend on the processing

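The 2 members called beyond genes of like abundance became 1 with genes of few counts kept and 0 by DESeq2's dispersion outlier flag (which marked 44 of 24872 genes), and the range on leaving out each library was 0 to 0. At an unadjusted p under 0.05 the edgeR test named 4 of 9 members with all libraries, 2 and 4 of 9 without replicates 1 and 2, and 5 of 10 without replicate 3. The share of all genes under that unadjusted limit was not computed, so these member counts have no background to be read against. At an adjusted p under 0.05, edgeR called 60, 119 and 129 of all genes without replicates 1, 2 and 3, against 384 with all libraries. The 8 members beyond counting error ranged from 3 (without replicate 1) to 9 on leaving out a library. Detected members ranged from 8 to 9 in the same way, and were 9 at 0.5 CPM and 6 at 2 CPM. Separated neighbours in the order of levels ranged from 1 to 6. The number of detected members highest in replicate 1 was 8 under DESeq2 size factors, total counts and a pseudocount of 1. Without replicate 1, 6 of them were higher in replicate 2 than in replicate 3. No mean ratio changed sign in the alternatives run, though CAP-G over CAP-G2 no longer had 1 sign in all 3 libraries per kb of coding sequence. Its mean ranged from −0.49 to −0.08 without single libraries, and SMC5 over both SMC6 genes from 0.31 to 0.79. With a pseudocount of 1, SMC2A over SMC2B was 0.40 and SMC6B over SMC6A 0.67, since these levels are low. Total counts in place of TMM left the counts of called members at 2 and 8. No paired analysis was possible because there is 1 group. At 8 to 22 counts in replicate 3, SMC6A and SMC2B are limited by depth.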
